A study of Mus musculus with 12 samples.

Results

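The comparison concerned where the transcription factor cJun lay relative to trimethylated lysine 4 of histone H3 (H3K4me3) at promoters of untreated Min6 cells, which derive from a mouse insulinoma and stand in for pancreatic β cells. It used 4 of the 12 CUT&RUN samples of the study, 2 biological replicates with a cJun antibody and 2 with an H3K4me3 antibody, all from cells that had received DMSO, the solvent control, for 48 hours. The cells are of 1 line, and 550000 of them entered each reaction. CUT&RUN releases the DNA around an antibody-bound protein with a tethered nuclease, and the authors called peaks in each replicate against an IgG control and joined the replicates of each antibody into 1 list. The remaining samples were the IgG controls and the same antibodies in cells that received 20 µM of the JNK inhibitor SP600125 for 48 hours (JNKi), whose lists are used below only as other libraries from the same line.

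All 21755 protein-coding genes on the autosomes and chromosome X were classed by whether a peak of either DMSO list came within 3 kb of any of their annotated start sites (41249 sites in all). H3K4me3 with cJun was found at 1670 genes, H3K4me3 alone at 11518, cJun alone at 49 and neither at 8518. The rule used the presence of a peak within the window, which a wide peak reaches more easily, so width and position are not fully independent of the classes, whereas rank and sequence were not used. The lists differed in size and reproducibility. The cJun list held 4960 peaks with a median width of 643 bp, of which 445 (8.97%) had an irreproducible discovery rate (IDR) of at most 0.05, and the H3K4me3 list held 19372 peaks with a median width of 1839 bp, of which 14150 (73.0%) did. Peak strength is given as −log10 p, for which each list holds the lower of its replicates' values. The files hold no read counts, so the depth behind a peak is unknown.

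cJun is the best known member of the AP-1 family, whose proteins bind DNA in pairs: cJun with itself or a Fos protein prefers the AP-1 site TGACTCA (read as TGAGTCA on the other strand), and cJun with an ATF protein can bind the CRE, TGACGTCA. It is switched on when JNK, a stress-activated kinase, phosphorylates it. H3K4me3 marks nucleosomes around the start sites of active and poised genes, most of them at CpG-rich promoters, and unusually wide H3K4me3 regions are known to lie at genes that define a cell type.

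Reference sequence within 8 cJun peaks shows the motifs found near the summit. The summit of a peak in each replicate is its position of highest signal, and the merged summit used here was usually the midpoint of both replicates' summits, which were 313 to 385 bp apart for Coil, Npas4 and Pcsk2 and closer for the others. Each stretch is centred on a motif in capitals, the CCAAT box for Ppp2r3d, at most 92 bp from the merged summit, so not every stretch holds the summit itself. The first 5 lay at promoters of genes with H3K4me3 and held an AP-1 site, though the Coil peak did not overlap the H3K4me3 peak and was also the cJun-alone peak of Elobl, the next at a promoter without H3K4me3 and an AP-1 site, and the last pair at promoters with H3K4me3 and a CRE or a GC box (GGGCGG, or CCGCCC on the other strand) but no AP-1 site. All are read 5′ to 3′ on the plus strand of GRCm38, the AP-1, CRE, CCAAT and GC box motifs are in capitals, and all lie outside annotated UTRs.
Nt5dc3 (chr10:86778650-86778710): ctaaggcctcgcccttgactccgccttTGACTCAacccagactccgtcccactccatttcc
Bcar1 (chr8:111742769-111742829): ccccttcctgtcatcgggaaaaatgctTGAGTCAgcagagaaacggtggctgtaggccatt
Coil (chr11:88969101-88969161): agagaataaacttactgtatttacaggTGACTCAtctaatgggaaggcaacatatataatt
Npas4 (chr19:4993113-4993173): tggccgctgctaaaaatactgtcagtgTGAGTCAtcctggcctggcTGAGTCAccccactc
Pcsk2 (chr2:143545523-143545583): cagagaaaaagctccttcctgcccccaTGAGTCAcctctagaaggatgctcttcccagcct
Lgals3 (chr14:47371714-47371774): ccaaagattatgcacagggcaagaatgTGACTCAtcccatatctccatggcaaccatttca
Ppp2r3d (chr9:124424923-124424983): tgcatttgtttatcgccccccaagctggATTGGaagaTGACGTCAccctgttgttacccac
Jun (chr4:95052642-95052702): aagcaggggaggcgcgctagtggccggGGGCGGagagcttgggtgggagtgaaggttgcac

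The first comparison asked whether cJun peaks at promoters went with H3K4me3. Promoter cJun peaks were almost all at genes with the mark: H3K4me3 was present at 97.1% (95% Wilson interval 96.3 to 97.8) of the 1719 genes with cJun and at 57.5% of the 20036 genes without. A promoter cJun peak was found at 7.9% of all genes, at 12.7% (12.1 to 13.2) of the 13188 H3K4me3-marked genes and at 0.572% (0.433 to 0.755) of the 8567 unmarked genes, a difference of 12.1 percentage points (Newcombe interval 11.5 to 12.7). H3K4me3 itself was at 60.6% of all genes. These intervals cover counting error over genes, which share peaks and are not replicates, and each list is already a pool of 2 replicates, so no p-value is given. Among the 199 genes with a cJun peak at IDR of at most 0.05, 195 (98.0%) carried H3K4me3. With the limit of 0.05 put on H3K4me3 instead, 1521 genes had both marks and 198 cJun alone. Without H3K4me3 peaks that differed by more than 3 times between replicates, 1575 had both and 144 cJun alone. At 1632 of the 1670 genes with both marks the cJun peak overlapped an H3K4me3 peak directly.

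The H3K4me3-alone genes outnumbered those with both marks in every class of CpG content. CpG content (observed over expected within 500 bp of the start site) had a median of 0.72 in both H3K4me3 classes, 0.23 at the 49 cJun-alone genes and 0.19 at genes with neither. From the CpG-poorest to the richest quintile of all genes, the share with H3K4me3 went from 9.68% to 95.4%, while the share of marked genes that also had cJun stayed between 11.9% and 13.5%. The share of marked promoters with cJun therefore varied little with CpG content, in contrast to H3K4me3 itself.

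Seen from the cJun list, promoters were not the most common place. Of its 4960 peaks, 1639 (33.0%) lay at a promoter and overlapped H3K4me3, 104 (2.10%) lay at a promoter without overlapping it, 1010 (20.4%) overlapped H3K4me3 away from protein-coding promoters, and 2207 (44.5%) were at neither. The 1743 promoter peaks included 197 that lay at the promoters of several genes.

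The next comparison related cJun to the width of the H3K4me3 peak. Promoters with cJun had wider H3K4me3: the median was 3111 bp (95% interval from order statistics 3019 to 3186) with cJun and 2518 bp (2490 to 2542) with H3K4me3 alone, a difference of 592.5 bp. When marked genes were divided into quintiles by H3K4me3 width, the share with cJun rose at each step. It was 6.18% (5.32 to 7.16) in the narrowest quintile (191 to 1701 bp), 9.37%, 11.7% and 14.0% in the following quintiles, and 22.0% (20.5 to 23.6) in the widest (3628 to 23064 bp). The step from narrowest to widest was 15.9 percentage points (14.0 to 17.7). The same order held among genes with a single annotated start site (5.47% to 21.1%) and for cJun peaks at IDR of at most 0.05 (0.682% to 2.77%).

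**Figure D1:**
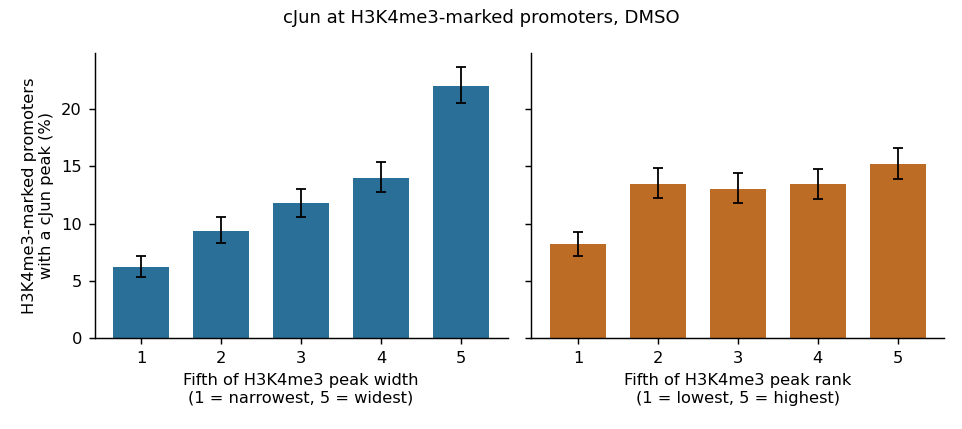
Share of H3K4me3-marked promoters with a cJun peak (%, vertical axis) by quintile of H3K4me3 peak width (left) and of H3K4me3 rank (right) in DMSO; bars are shares and error bars 95% Wilson intervals over genes. The share climbed from 6.18% to 22.0% with width, while over rank it went from 8.19% to 13.5% between the lowest quintiles and lay between 13.0% and 15.2% above that.

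A wide peak offers more sequence in which a cJun summit can fall. Counted per length, the 11591 promoter H3K4me3 peaks held 3.85, 4.08, 4.12, 4.52 and 5.998 cJun summits per 100 kb from the narrowest to the widest quintile, so the density also increased but much less than the share. Within a fixed distance of 250 bp either side of the start site, in genes with 1 start site, the share with a cJun summit was 2.62% (1.88 to 3.64) in the narrowest quintile and 5.82%, 4.88%, 5.31% and 6.25% (4.96 to 7.85) in the others. With the searched length held constant, the narrowest quintile was lower and the remaining quintiles had overlapping intervals.

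At the extreme of width cJun was common. Of the 20 widest promoter H3K4me3 peaks (11239 bp or more), 15 had cJun at a promoter, as did 32 of the widest 50, 57 of the widest 100 and 181 of the widest 500 (36.2%), against 12.8% of all 11591. The widest H3K4me3 of all covered Pax6 (23064 bp), a homeodomain factor needed for islet endocrine cells, with 5 cJun peaks at its promoters, the highest at −log10 p of 11.1 and 6.61 in its replicates. Isl1, another islet homeodomain factor, had H3K4me3 over 16479 bp and cJun 117 bp upstream of a start site at 12.4 and 16.1. Cdkn1b, which encodes the cell cycle inhibitor p27, had H3K4me3 over 14642 bp and cJun 16 bp downstream at 13.1 and 21.2. For Isl1 and Cdkn1b the cJun peaks passed an IDR of 0.05 (0.0481 and 0.0324), whereas the Pax6 peak did not (0.369).

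Other very wide domains had no cJun peak within 3 kb of a start site in DMSO, and the rest of each domain was not examined. Nkx2-2, a further islet homeodomain factor, carried 15152 bp of H3K4me3 and the growth factor gene Igf2 14560 bp, both with H3K4me3 alone, followed by Spc25, Atp2a2, Arhgap21 and Stk35. Several of the widest peaks were much stronger in 1 replicate: H3K4me3 at Ero1lb (17317 bp, an oxidase of protein folding in the endoplasmic reticulum) had −log10 p of 521 and 4.25, and at Arhgap21 (11239 bp) 3.38 and 582. The Atp2a2 peak (11357 bp) was weak in both, at 3.62 and 6.61. A difference of more than 3 times between replicates was found at 5.75% of genes with both marks and 4.42% with H3K4me3 alone. With the width taken from the narrower replicate peak or without those peaks, the step between the outer width quintiles stayed within the interval above.

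H3K4me3 rank, the percentile of a peak's −log10 p within the list, told the classes apart less than width did. The median percentile was 73.7 (72.6 to 75.3) with cJun and 69.7 (69.1 to 70.3) with H3K4me3 alone, a difference of 4.04 points (2.74 to 5.71). By quintile of rank the cJun share was 8.19% in the lowest, 13.5%, 13.0% and 13.4% in the middle, and 15.2% in the highest. The 6 highest H3K4me3-alone genes, Dvl2 and Phf23 (which share a peak), Ppp1r15b, Dpf2, Calm3 and Zc3h4, had H3K4me3 at −log10 p of 737 to 846 and widths of 2906 to 6876 bp, all within the 2 widest quintiles. The IDR of these peaks was 0.306 although both replicates were high. A limit of 0.05 on the IDR of H3K4me3 therefore leaves out some of the strongest peaks. The difference in rank was 2.38 points (−0.38 to 4.72) with genes of 1 start site alone, 1.64 points (−0.11 to 4.33) in the JNKi lists and 3.25 points (−1.31 to 6.43) with cJun peaks at IDR of at most 0.05, and these 3 intervals include 0, while with 1 gene per promoter cluster it was 6.11 points (4.62 to 7.88).

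Width and rank were then separated by dividing marked genes by both. Within quintiles of rank, the widest genes had cJun 20.0 percentage points more often than the narrowest (16.8 to 23.2, mean over the 4 rank quintiles with at least 20 genes in both cells). Within quintiles of width, the share in the highest-ranked genes minus that in the lowest-ranked was −2.89 points (−5.60 to −0.18, over 4 width quintiles). Among genes in the widest quintile, the share was 26.6% at the lowest rank and 19.3% at the highest. This difference over rank varied with the processing. It was 0.35 points (−0.47 to 1.17) with cJun peaks at IDR of at most 0.05, −0.38 (−3.19 to 2.42) with 1 gene per promoter cluster, −2.17 (−5.17 to 0.82) with the second replicate's rank and −3.90 (−8.48 to 0.68) without H3K4me3 peaks that differed by more than 3 times between replicates. It was larger with the first replicate's rank, −6.14 (−9.59 to −2.69), with genes of 1 start site, −7.82 (−12.06 to −3.58), and with H3K4me3 at IDR of at most 0.05, −5.08 (−9.11 to −1.05).

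**Figure D2:**
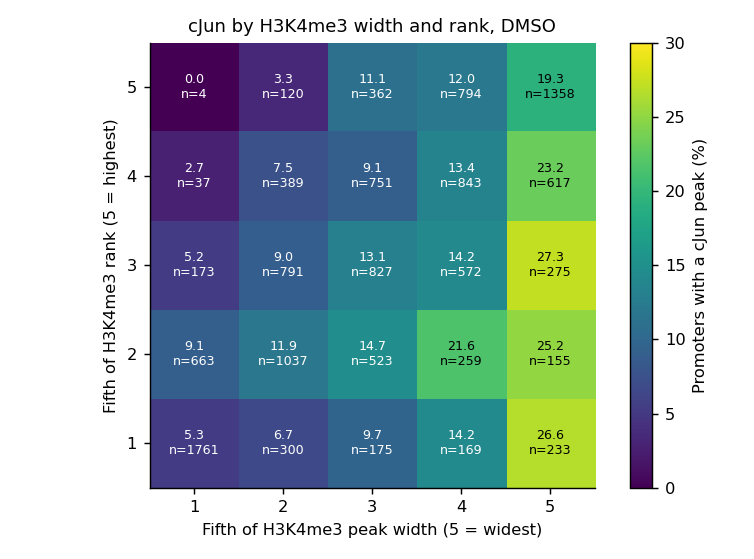
Share of marked promoters with a cJun peak (% in each cell and colour scale, with the number of genes) by quintile of H3K4me3 width (horizontal) and of H3K4me3 rank (vertical) in DMSO. In each row the share increased from left to right, the top left cell holding 4 genes, and it reached 27.3% for the widest peaks of the middle rank.

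The third comparison placed cJun summits around the start site. At H3K4me3-marked promoters 1696 cJun peaks had a median distance of 267 bp (251 to 286) from the nearest start site, 47.3% (45.0 to 49.7) lay within 250 bp and 69.0% within 500 bp. They were nearly even on both sides, with 47.8% (45.4 to 50.1) upstream. The most filled 100 bp bins were 100 to 200 bp downstream (234 peaks), 0 to 100 bp downstream (200) and 200 to 300 bp upstream (166), and the bins between the last pair of maxima, from −200 to 0 bp, held 118 and 122. The peaks at IDR of at most 0.05 lay closer, with a median of 211 bp (170 to 248, 167 peaks).

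**Figure D3:**
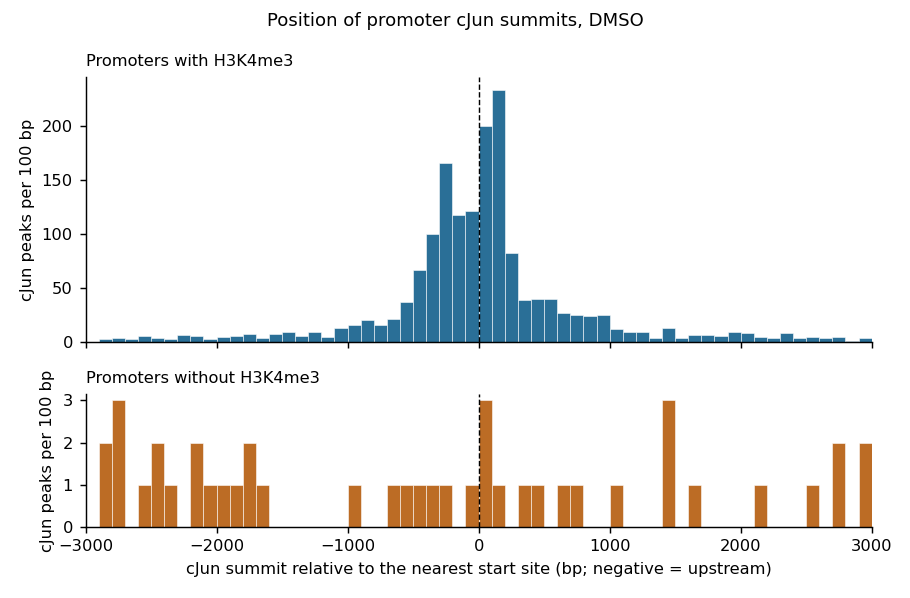
Number of promoter cJun peaks per 100 bp (vertical) by the position of their summit relative to the nearest start site (bp, negative is upstream) at promoters with H3K4me3 (top, 1696 peaks) and without (bottom, 47 peaks). Marked promoters show a maximum of 234 peaks at 100 to 200 bp downstream and a second of 166 at 200 to 300 bp upstream; the unmarked promoters show no concentration at the start. Summits farther than 3 kb are not drawn.

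Without H3K4me3, the 47 promoter cJun peaks were spread over the window, with a median distance of 1872 bp (1456 to 2424) and 5 (10.6%) within 250 bp, 36.7 percentage points fewer than with H3K4me3 (24.5 to 43.2). This difference was 19.9 points with H3K4me3 at IDR of at most 0.05, 20.9 without H3K4me3 peaks that differed by more than 3 times, 22.7 with a 1 kb window and 58.1 with cJun at IDR of at most 0.05 (3 peaks without H3K4me3), and in the JNKi lists its interval included 0 (−1.40 to 42.3). Their strength was similar, with a median −log10 p of 6.10 against 5.97 at marked promoters. Most of these peaks were thus not at the start site of the gene they were counted for.

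Within the H3K4me3 domain, cJun was found mostly in the upstream and central parts. Of the 1631 promoter cJun summits inside an H3K4me3 peak, 45.9% fell in the 5′-most of 3 equal parts of the domain, 44.9% in the middle and 9.20% in the 3′-most. H3K4me3 itself extended farther downstream than upstream: at genes with both marks, from a median of 870 bp before the start to 2112 bp after it, and at genes with H3K4me3 alone from 737 to 1689 bp. With these 1631 summits divided into quintiles by the width of their own domain, the median distance from the start site was 178 bp (148 to 216) in the narrowest and 473 bp (402 to 557) in the widest, a description only, since the domain's width limits how far a summit inside it can lie.

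Sequence at the summits differed by location. The windows 2 kb away that serve for comparison were not matched for GC content. Within 100 bp of the summit, an AP-1 site was present in 4.36% (3.49 to 5.44) of cJun peaks at marked promoters, close to the 3.66% (2.86 to 4.66) in windows 2 kb away. Away from promoters and H3K4me3 it was present in 335 of 2207 peaks, 15.2% (13.7 to 16.7), against 3.94% at 2 kb, a difference from marked promoters of 10.8 points (9.02 to 12.6). Peaks within H3K4me3 but away from promoters lay between, at 7.82% (6.32 to 9.64). Over the whole peak, the AP-1 shares were 15.5%, 31.7% and 45.9% for marked promoters, other H3K4me3 peaks and all others, against 10.4%, 14.1% and 13.5% in equally long windows 2 kb away. At marked promoters the share rose with distance from the start site, from 3.36% within 250 bp to 8.39% beyond 1 kb (difference 5.03 points, 1.92 to 9.06).

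**Figure D4:**
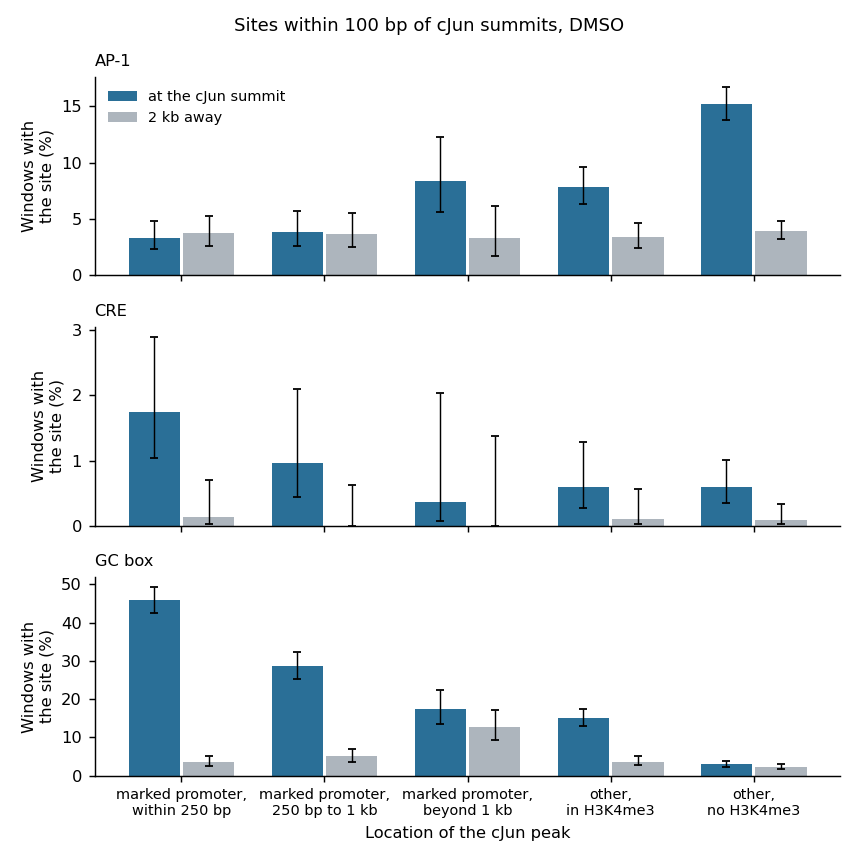
Share of cJun peaks with an AP-1 site, a CRE or a GC box within 100 bp of the summit (blue) and in windows 2 kb away (grey), by location in DMSO; error bars are 95% Wilson intervals over peaks and each panel has its own scale. AP-1 sites rise from 3.36% near marked start sites to 15.2% away from promoters and H3K4me3, while GC boxes fall from 46.0% to 2.99%. The windows 2 kb away were not matched for GC content.

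At the promoters with cJun alone, 8 of 47 peaks (17.02%, 8.89 to 30.1) had an AP-1 site at the summit, 12.7 points above marked promoters (4.45 to 25.8). This difference was 2.85 points (−1.46 to 13.7) with the summit of the stronger replicate, 0.82 (−2.97 to 17.5) with only those peaks whose replicate summits lay within 100 bp, 2.196 (−0.69 to 6.49) with H3K4me3 at IDR of at most 0.05 and 9.64 (−0.84 to 35.3) in the JNKi lists, so 4 intervals include 0. The difference for peaks away from promoters and H3K4me3 was smaller under both summit definitions, 5.93 (4.41 to 7.44) and 5.60 points (3.63 to 7.60), but did not include 0.

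The position of the AP-1 site relative to the replicates' summits varied with the distance between them. Where these were 200 to 400 bp apart, 32.4% (28.5 to 36.5) of 516 peaks away from promoters and H3K4me3 had an AP-1 site within 100 bp of the merged summit, which is close to the midpoint, but 9.30% and 11.05% had one within 100 bp of the individual summits. At marked promoters the corresponding values were 8.68% (6.04 to 12.3) of 311 peaks against 4.18% for either replicate. At 100 to 200 bp apart the merged summit had the lowest share, 7.17% against 7.51% and 10.9% away from promoters and 2.58% against 4.52% and 7.097% at marked promoters. Beyond 400 bp it was 18.8% against 5.08% and 7.11% away from promoters, and 3.29% against 3.29% and 1.32% at marked promoters. Where the replicates' summits were within 100 bp of each other the 3 positions gave 9.16%, 10.2% and 9.99% away from promoters. These intervals of distance were chosen after the data had been seen.

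The CRE was rarer but followed promoters with cJun. It was within 100 bp of the summit of 21 of 1696 cJun peaks at marked promoters (1.24%, 0.811 to 1.89) and in 1 of the windows 2 kb away (0.059%). At the first replicate's own summits the count was 13 and at the second's 16, and 10 of the 21 came from the 311 peaks whose replicate summits were 200 to 400 bp apart. Between 250 bp before and 50 bp after the start site, a CRE was found at 6.17% (5.11 to 7.43) of genes with both marks, 2.97% (2.67 to 3.295) with H3K4me3 alone and 2.46% of all genes, a difference between the marked classes of 3.20 points (2.09 to 4.49). Conversely, 103 of the 445 marked genes with a promoter CRE had cJun (23.1%), against 12.3% of those without. The difference was present in the middle 3 width quintiles (17.04, 11.5 and 15.3 points), and in the narrowest and widest quintiles its interval included 0 (3.74 and 2.01 points).

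In the same promoter window the AP-1 site was at 3.77% and 3.13% of the marked classes (difference 0.65 points, −0.23 to 1.72), and the intervals also included 0 for CCAAT (39.9% and 38.4%, −1.01 to 4.01) and the GC box (62.3% and 60.5%, −0.78 to 4.198). The ETS motif CCGGAAG was less frequent with cJun, at 13.3% against 16.6% (−3.298 points, −4.99 to −1.46), and the NRF1 motif TGCGCA was at 12.2% and 13.7% (−3.17 to 0.20). Over all 21755 genes the same window held an AP-1 site at 4.55%, CCAAT at 38.9%, the GC box at 43.4%, the ETS motif at 10.9% and the NRF1 motif at 9.31%. At the cJun summits themselves the GC box, a site of SP and KLF proteins, was in 35.0% of windows against 5.60% at 2 kb. The GC box share at summits fell with distance from the start site, from 46.0% within 250 bp to 17.5% beyond 1 kb.

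The strongest cJun peaks at marked promoters had no AP-1 site within 100 bp of the summit, and the rest of these wide peaks was not searched one by one. The highest at IDR of at most 0.05 was at St6galnac6, a sialyltransferase gene, with cJun at −log10 p of 86.8 and 62.9 in its replicates, 179 bp upstream of a start site inside H3K4me3 of 2873 bp. The divergent genes Lamtor1 and Tomt shared the next (57.7 and 62.6), which lay 81 bp inside Lamtor1, a component of the Ragulator complex on lysosomes. Ppp2r3d followed with a peak of 3685 bp (57.4 and 55.7) that holds the CRE printed above. Srebf1, the lipogenic transcription factor, had cJun 2161 bp upstream of the 1 start site used for it (48.3 and 44.7). That peak spanned the annotated 5′ end of the gene, which lay upstream of this start site. Zbtb21, Klhl9 and Zbtb44 completed the 8 highest at 36.5 to 39.3. All 8 genes also had cJun in the JNKi list.

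The highest peaks with an AP-1 site at marked promoters were Nt5dc3 (cJun −log10 p of 32.7 and 32.6, 233 bp upstream), Bcar1 (23.1 and 24.5, 1049 bp downstream), Coil (30.8 and 20.9, 1100 bp upstream) and Npas4 (16.4 and 17.4, 2792 bp upstream). Bcar1 encodes the adaptor p130Cas, Coil the scaffold of Cajal bodies and Npas4 an activity-dependent transcription factor. The Npas4 window held the AP-1 site at 2 places. Of these, Nt5dc3 was the nearest to a start site and the others lay more than 1 kb away.

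Of the 49 cJun-alone genes, 4 had a peak at IDR of at most 0.05. The highest by far was the predicted gene Gm21887 on chromosome X (−log10 p of 191, the highest cJun peak of the whole list), which the rule for named genes passed over and is named here after its value was seen. Elobl (30.8 and 20.9) was counted for the same peak as Coil, 2221 bp upstream of its own start. Lgals3, the gene of galectin 3, had cJun 2145 bp upstream with an AP-1 site (20.6 and 34.1). Kcnj1, Baalc, Slc25a33 and Creb5 had cJun at 9.60 to 11.4 without one within 100 bp of the summit, and Creb5, itself an ATF family member, had it 105 bp from its start.

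Among 23 genes of the AP-1 family and its partners, 21 had H3K4me3 and 6 of these cJun (28.6%, 13.8 to 49.96, against 12.7% of all marked genes): Jun, Fosl2, Atf3, Atf4, Crem and Maff. At the cJun shares of their width quintiles 3.63 would have had it. At Jun itself, H3K4me3 covered 4382 bp and the highest of 3 cJun peaks lay 391 bp upstream (15.1 and 11.98, IDR 0.0492), with the GC box shown above and no AP-1 site within 100 bp. Fosl2 had an AP-1 site at a cJun summit 35 bp downstream (16.4 and 11.2), but its replicates' summits were 1976 bp apart. Fos, Fosb, Fosl1, Junb and Jund carried H3K4me3 alone.

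Immediate early genes and the JNK pathway had cJun more often than the 12.7% of all marked genes. Of 23 immediate early genes, all marked, 11 had cJun (47.8%, 29.2 to 67.0), 5 of them at IDR of at most 0.05. Egr1 (23.9 and 20.97, 211 bp upstream), Dusp1 (21.2 and 17.2, 426 bp upstream) and Klf10 (12.5 and 18.5, 402 bp upstream) were among the highest, and Ier2 and Junb had H3K4me3 of 5868 and 5796 bp without it. Of 20 JNK pathway genes, 9 had cJun, and 4 of the 9 were phosphatases that switch MAP kinases off: Dusp16 (33.3 and 28.3, 64 bp upstream), Dusp10 (22.8 and 19.3), Dusp1 and Dusp4 (15.3 and 8.45). The others were Map2k7, Map3k1, Map3k12, Mapk10 and Mapk8ip1, while the kinases Mapk8 and Mapk9 had H3K4me3 alone. Dusp1 counts in both lists. These genes were also wide, and at the cJun shares of their width quintiles 4.13 of the 23 and 3.49 of the 20 would have had cJun.

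H3K4me3 was at 11 of 12 markers of the labelled cell type, β cells, the exception being Ins1, and at 0 of 9 acinar, 5 endothelial, 4 muscle and 4 liver markers, although 5 of 6 α cell markers, Gcg among them, carried it too. The mark was also at 3 of 6 ductal, 1 of 6 immune and 1 of 6 mesenchyme markers, and at 0 of 3 δ and PP cell markers. Of 17 marked genes of the secretory granule, 11 had cJun (64.7%, 41.3 to 82.7) where their width shares give 3.51, but 0 of these peaks had an IDR of at most 0.05. They were Chga, Iapp, Ins2, Pam, Pcsk2, Ptprn, Ptprn2, Scg2, Scg3, Scg5 and Vgf. Chga, the granule protein chromogranin A, had the highest (11.2 and 24.9), and Pcsk2 (8.07 and 10.1) and Ptprn (11.6 and 6.66) had an AP-1 site within 100 bp of the merged summit, their replicates' summits being 385 and 296 bp apart. Cck, the gene of cholecystokinin that the study followed, had 7132 bp of H3K4me3 without a listed cJun peak within 3 kb of a start site. The study itself reported cJun about 3 kb beyond the 3′ end of Cck, a region not examined here. It also described binding at the Cck promoter, which JNKi did not change significantly. Pcsk1, Chgb, Cpe, Pcsk1n and Slc30a8 likewise had H3K4me3 without a cJun peak at the promoter.

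Of 18 marked β cell identity factors, 8 had cJun (44.4%, 24.6 to 66.3, width shares 3.36): Foxa2 (19.2 and 17.2), Rfx3 (15.2 and 17.3), Isl1, Nkx6-1 (7.20 and 13.1), Neurod1 (6.43 and 7.25), Pax6, Pdx1 and St18. Those of Foxa2, Rfx3 and Isl1 passed an IDR of 0.05. Mafa and Nkx2-2 had H3K4me3 of 6818 and 15152 bp alone, and Hnf4a and Neurog3 had neither mark. cJun was at 0 of the 5 marked α cell genes (0 to 43.4%), where width shares give 0.56 genes.

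**Figure D5:**
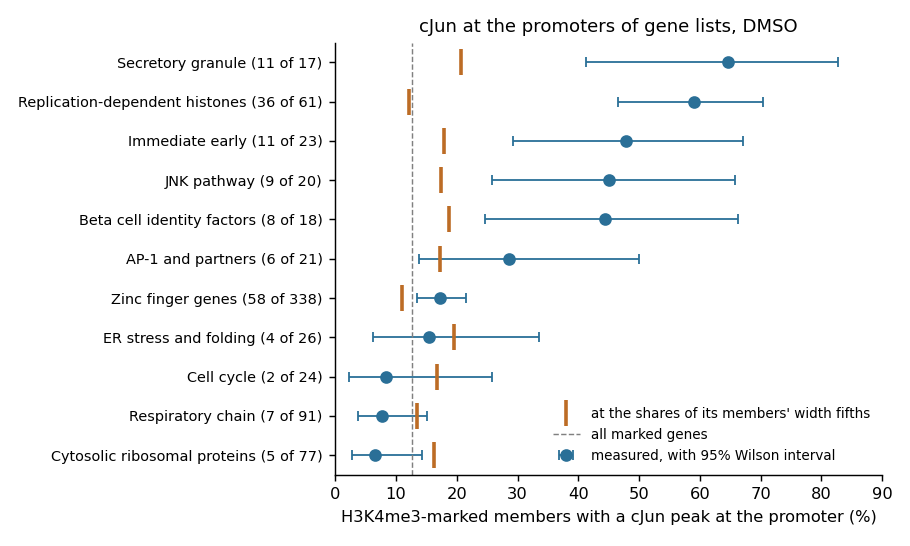
Share of H3K4me3-marked members with a cJun peak at the promoter (%, horizontal) for 11 gene lists, with the counts beside each name; points are measured shares, bars 95% Wilson intervals over genes, orange ticks the share at the members' width quintiles and the dashed line the 12.7% of all marked genes. Secretory granule genes (64.7%) and histones (59.0%) lie highest and ribosomal protein genes (6.49%) lowest.

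Replication-dependent histone genes had cJun at 36 of 61 marked genes (59.0%, 46.5 to 70.5), although their H3K4me3 was not especially wide (median 2753 bp, width shares 7.4 genes). They lie in dense clusters, and the 36 genes rested on 19 cJun peaks. Hist1h4k and Hist1h2ak shared the highest (28.4 and 19.2), and Hist2h4 had one 126 bp from its start (20.6 and 16.2). Zinc finger genes had cJun at 58 of 338 marked genes (17.2%, 13.5 to 21.5), above their width shares of 36.9 genes, with the highest at Zfp131, Zfp335, Zfp868 and Zfp873 (lower −log10 p of 23.1 to 23.8).

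For ribosomal protein, respiratory chain, cell cycle and ER stress genes, the intervals of the cJun share all included the 12.7% of all marked genes. Ribosomal protein genes had a median H3K4me3 percentile of 89.6, and 5 of 77 (6.49%, 2.81 to 14.3) had cJun, among them Rps14 (15.4 and 12.4) and Rps2 (9.75 and 8.96). Their width shares give 12.5 genes (16.3%), which lies above that interval. Respiratory chain genes had it at 7 of 91 (7.69%, 3.78 to 15.04, width shares 12.2). Of the 24 cell cycle genes 2 had it (8.33%, 2.32 to 25.9, width shares 4.0), Cdkn1b and E2f1 (7.61 and 9.19). Among 26 genes of ER stress and protein folding, all marked, 4 had cJun (15.4%, 6.15 to 33.5, width shares 5.07). They were Ern1, Ddit3, Atf4 and Edem1, sensors, transcription factors and a degradation factor of the unfolded protein response, while the chaperones Hspa5, Calr, Canx and Hsp90b1 had H3K4me3 alone. Olfactory receptor genes carried H3K4me3 at 3 of 1093 and vomeronasal receptor genes at 1 of 326, none with cJun.

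A last list held 11 genes taken from the text of the study, Cck among them, which fell into 3 classes. Jun, Crem (13.3 and 25.7), Egr1, Itgb1 (15.8 and 6.38) and Ins2 (4.80 and 9.64, summits 615 bp apart) had both marks, Cck, Fos, Ccnd1, Cdk1 and Clu had H3K4me3 alone, and Ins1 had neither. The cJun peaks of Jun, Crem and Egr1 had an IDR of at most 0.05.

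The JNKi lists come from other libraries, so they show how far the DMSO classes recurred. A JNKi cJun peak was found at 24.9% (22.9 to 27.0) of genes with both marks in DMSO, 26.5% (16.2 to 40.3) with cJun alone, 1.72% with H3K4me3 alone and 0.059% with neither. H3K4me3 in JNKi was at 99.9%, 10.2%, 98.2% and 0.916% of the same classes. Nkx2-2, Ier2 and Zc3h4 were among the genes with H3K4me3 alone in DMSO that had a JNKi cJun peak. The JNKi cJun share also increased over the quintiles of DMSO H3K4me3 width, from 2.24% (1.74 to 2.87) and 3.299% through 3.64% and 6.03% to 8.07% (7.09 to 9.18). These lists differ from those of DMSO in treatment as well as in library, and the 2 cannot be told apart here.

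The 3 kb limit did not fall at a break in the data. A cJun peak edge between 2.5 and 3 kb from the nearest start site put 46 genes inside, 39 of them marked, with a median −log10 p of 6.24, and 40 genes had theirs at 3 to 3.5 kb, 38 of them marked, with a median of 6.80.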

How the data were processed

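CUT&RUN peak lists of Min6 cells were analysed, grouped by their labels. Per the labels and methods, the authors trimmed reads with Trimmomatic, aligned them to GRCm38 with Bowtie2 2.4.2, filtered them with SAMtools 1.16, called peaks per replicate with MACS2 2.2.7.1 against IgG and joined 2 replicates per antibody with IDR. The deposited lists give a −log10 p-value for the merged peak and each replicate, and a score scaled from IDR, also given by the authors as −log10. The merged value was the lower of the replicates' in 100% of peaks. The merged summit was within 1 bp of the mean of the replicates' summits in 92.7% of cJun peaks, and these summits were a median of 63 bp apart. The lowest −log10 p was just above 3, a p of 0.001, and the lists hold peaks of any IDR, whereas the methods name default peak calling, which limits the q-value, and IDR as the means of choosing peaks. Which limit defined a peak in the deposited lists is therefore unclear, and every class rests on these lists as deposited. Replicate columns carry no numbers and are named first and second.

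Start sites came from the GENCODE vM21 basic annotation, sequence from RefSeq GRCm38. A gene took the peak of highest −log10 p within 3 kb of any start site, and a promoter cJun peak the start site nearest its summit. Motifs were searched on both strands of the reference. AP-1 and CRE letters cannot overlap as searched, while a GC box can overlap another. Wilson and Newcombe intervals are at 95% and cover counting error only. Width shares sum the cJun share of each member's width quintile. The comparisons, gene lists and named genes were chosen with earlier results of these data known, and no set test was run. Named genes were the highest or widest of each class and list, passing over predicted genes, and 11 genes taken from the study's text. Classes and positions were recovered for 400 of 400 planted genes and 201 of 201 planted summits. Scripts used Python 3.11.15, pandas 2.3.3 and pysam 0.24.0. Reads and IgG libraries were not analysed here.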

Additional observations from a re-analysis of the deposited data

How the results depend on the processing

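In all, 16 results were recomputed under 21 alternatives, giving 279 values, of which 208 stayed within the interval of the reported value, or within 1.5 times for counts of genes, 70 moved beyond it and 1 reversed. Differences below are in percentage points unless stated, "step" is the cJun share of the widest minus the narrowest H3K4me3 quintile, and the cause of a move was not tested unless the alternative uses fewer peaks or genes. With cJun at IDR of at most 0.05, 195 genes had both marks and 4 cJun alone, marked minus unmarked was 1.43, the width difference 681 bp, the step 2.08 and 2.60 within rank quintiles, the share within 250 bp 58.1% and 58.1 above cJun alone, the upstream share 53.3%, the AP-1 difference of cJun alone 61.9 (3 peaks), and the rank difference within width quintiles reversed to 0.35. With cJun −log10 p of at least 5, cJun alone was at 30 genes, marked minus unmarked 8.65, the step 12.3 and 15.2 within rank, and the share within 250 bp 50.9%. With H3K4me3 at IDR of at most 0.05, which left out some of the strongest H3K4me3 peaks, cJun alone was at 198 genes, marked minus unmarked 10.98, the width difference 464 bp, the rank difference 2.60 percentiles, the step 14.0, the 250 bp difference 19.9 and the AP-1 difference of cJun alone 2.196. A 1 kb window gave 20, 11.3, a step within rank of 14.7, a 250 bp share of 54.3% and a difference of 22.7. With 1 start site per gene, marked minus unmarked was 11.4, the 250 bp share 43.5% and the upstream share 41.0%. With 1 gene per promoter cluster, the rank difference was 6.11 and the step 18.3. H3K4me3 merged over 1 kb gave a width difference of 679 bp, and ranks of the first replicate a step within rank of 23.4 and a rank difference within width of −6.14. In the JNKi lists both marks were at 616 genes and cJun alone at 16, marked minus unmarked was 4.53, the rank difference 1.64, the step 6.81 and 9.61 within rank, the 250 bp share 53.6%, the CRE difference 5.47 and the AP-1 difference of peaks away from promoters and H3K4me3 14.9. There the 250 bp difference of 25 (−1.40 to 42.3) and the AP-1 difference of cJun alone, 9.64, have intervals that include 0. A distance of 500 bp gave 69.0% and 47.7. The AP-1 difference of peaks away from promoters and H3K4me3 was 6.71 within 50 bp and 30.4 in the whole peak.

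These alternatives were chosen after seeing the data. H3K4me3 replicates within 3 times gave 144 genes with cJun alone, 10.9 for marked minus unmarked, 20.9 for the 250 bp difference and 3.93 for the AP-1 difference of cJun alone. Genes with 1 start site fell into 652, 5179, 25 and 4785 genes in the order of the report, with 10.7 for marked minus unmarked, a rank difference of 2.38, −7.82 for rank within width, 42.4% within 250 bp and a CRE difference of 2.03. The summit of the stronger replicate gave AP-1 differences of 2.85 for cJun alone and 5.93 for peaks away from promoters and H3K4me3. Peaks with replicate summits within 100 bp gave 23 genes with cJun alone, 8.42 for marked minus unmarked, a step of 9.78 and 12.6 within rank, 51.8% within 250 bp, and AP-1 differences of 0.82 and 5.60 in the same order. The narrower replicate width moved none of the 16 results.

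No paired analysis was possible because each antibody gave 1 list and its replicate columns carry no number. No alternative leaves out a replicate, since the lists hold only peaks called in both. Few cJun peaks passed an IDR of 0.05, so most cJun calls were weak, and counts for cJun alone rest on few peaks. Without read counts, an absent peak is not an absent protein, and the lists of both antibodies cannot be compared in signal.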
